A study of Comephorus dybowskii and Comephorus baikalensis and Batrachocottus nikolskii with 4 samples.

Results

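Muscle builds its proteins on ribosomes that are served by initiation and elongation factors, and the present values describe the RNA of these factors in the skeletal muscle of 4 sculpin species of Lake Baikal. Members were chosen by protein title. They are the identifiers of the normalized tables with at least 1 title that contains "elongation factor 1", "elongation factor 2", "translation initiation factor" or "polyadenylate-binding protein". Of 30 such identifiers, 1 was dropped because it also carries an actin title, which left 29 of the 792 identifiers in these tables. Elongation factors account for 14 of them, initiation factors and their regulators for 12, and poly(A)-binding proteins for 3.

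The pelagic genus *Comephorus* was represented by *C. dybowski* and *C. baicalensis*, and the benthic genus *Batrachocottus* by *B. nikolskii* and *B. multiradiatus*. All fish were wild-caught, sexually mature adults, and no treatment or genetic change was involved. Each species is 1 library from pooled muscle RNA, with 15 individuals per pool in the sample labels and larger numbers in the study's methods, so no spread within a species was measured. In the comparison of genera the 2 species of a genus are its 2 samples, and genus, habitat and ancestry cannot be told apart.

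Levels are given as CPM, read counts scaled to a library size that the authors adjusted. They are not scaled to transcript length, so a level is compared between libraries and not between genes, and in bulk muscle fewer cells of a type cannot be told apart from less RNA per cell. The 792 identifiers are those that the study called different between at least 1 pair of species, so a difference of a member is not independent evidence, and a factor whose identifiers were not called is missing from every sum below. An identifier is a Trinity gene name of the joined assemblies, and its titles are the study's best database matches in other species. Of the 29 members, 12 carry the title of 1 protein and 17 carry titles of other proteins too, up to 4 in all, and in those the reads of the factor cannot be told apart from those of the other protein. A difference between libraries in such an identifier may be one between different proteins, which was not tested. Titles were read for 657 of the 792 identifiers and from a part of the study's list. An identifier described below as having no other title, or the title of 1 protein, may therefore have further ones.

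In eukaryotic translation, initiation factors place the ribosome on the start codon. Factor 1 watches over the choice of that codon, factor 2 brings the initiator tRNA, the large factor 3 complex holds the small ribosomal subunit, and factor 4E binds the cap of the messenger. Elongation factor 1-alpha then carries each aminoacyl-tRNA to the ribosome and is recharged with GTP by a complex of the beta, delta and gamma subunits of elongation factor 1, while elongation factor 2 moves the ribosome along by a codon. Poly(A)-binding proteins coat the tail of the messenger and link it to the cap-binding complex. In muscle these factors are known as targets of growth and nutrient signalling, and elongation factor 2 is known to be inhibited by phosphorylation during contraction.

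Elongation factor 1-alpha had 4 identifiers, of which 2 were called higher in *Comephorus*. DN108_c0_g1 was at 922 and 882 CPM in *C. dybowski* and *C. baicalensis*, against 14.7 and 115 CPM in *B. nikolskii* and *B. multiradiatus*. Both *Comephorus* libraries were far above both *Batrachocottus* libraries, and limma called the log2 difference of 4.40 ± 1.22 (SE, n = 2 species per genus, adjusted p = 0.0426). DN183_c0_g1 was at 286 and 304 CPM in *C. dybowski* and *C. baicalensis* and at 6.26 and 12.9 CPM in *B. nikolskii* and *B. multiradiatus*, a log2 difference of 4.88 ± 0.73 (limma, adjusted p = 0.0146). The groups did not overlap, and the *Comephorus* species were within 1.06-fold of each other. These 2 identifiers also carry titles of cellular retinoic acid-binding protein 1 (DN108_c0_g1) and of dynactin subunit 3 and the mitochondrial protein MIC25a (DN183_c0_g1).

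The other identifiers of elongation factor 1-alpha were high in *B. multiradiatus* alone. DN4640_c2_g1, which has no other title, was at 4.96 and 8.75 CPM in *Comephorus* (*C. dybowski* given before *C. baicalensis*, here and below), and at 10.6 CPM in *B. nikolskii* and 164 CPM in *B. multiradiatus*. DN4975_c0_g1, also titled as the dehydrodolichyl diphosphate synthase subunit NUS1, was at 8.72 and 14.8 CPM in *Comephorus*, against 4.34 CPM in *B. nikolskii* and 210 CPM in *B. multiradiatus*. Their levels in *B. nikolskii* lay near those of *Comephorus*, and neither difference between the genera was called (limma, adjusted p = 0.209 and 0.527).

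The beta, delta and gamma subunits of elongation factor 1 form the exchange complex that recharges the alpha factor. Beta subunit identifiers showed a different library at the top each time. DN2588_c0_g1 was at 716 and 13.9 CPM in *C. dybowski* and *C. baicalensis*, against 0.721 and 1.64 CPM in *B. nikolskii* and *B. multiradiatus*. DN741_c0_g2 was at 9.98 and 605 CPM in *Comephorus* and at 3.87 and 3.42 CPM in the *Batrachocottus* species. The first was thus an identifier of *C. dybowski* and the second one of *C. baicalensis*, and neither was called between the genera (limma, adjusted p = 0.0865 and 0.164). DN2733_c0_g1, also titled F-box only protein 28, was at 36.3 and 72.2 CPM in *Comephorus* and at 995 and 986 CPM in *Batrachocottus*. It was lower in *Comephorus* by a called log2 difference of -4.25 ± 0.76 (limma, adjusted p = 0.0176).

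The delta subunit had a single identifier, DN893_c0_g1, at 135 and 7.11 CPM in *C. dybowski* and *C. baicalensis*, against 4.90 and 5.998 CPM in *B. nikolskii* and *B. multiradiatus*. A single library, *C. dybowski*, stood above the other 3, which lay close together, and limma did not call the genera (adjusted p = 0.247).

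Gamma subunit identifiers parted the genera in opposite directions. DN519_c0_g1 was at 114 and 188 CPM in *Comephorus* and at 4.47 and 8.61 CPM in *B. nikolskii* and *B. multiradiatus* (log2 difference 4.34 ± 0.75, limma, adjusted p = 0.0166). It also carries titles of synaptopodin-2, toll-like receptor 2 and unique cartilage matrix-associated protein a. DN50_c1_g3, with no other title, was at 1.44 CPM in *C. dybowski* and listed at 0 in *C. baicalensis*, against 99.96 and 234 CPM in *B. nikolskii* and *B. multiradiatus* (log2 difference -6.62 ± 0.91, limma, adjusted p = 0.0134). The 0 allows up to 0.0567 CPM (3 counts, counting error only). DN1003_c1_g1, also titled beta-galactosidase, was at 2.16 and 2.20 CPM in *Comephorus* and at 9.45 and 88.3 CPM in the *Batrachocottus* species. Its groups did not overlap either, but the benthic species differed 9.34-fold and limma made no call (adjusted p = 0.104).

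Elongation factor 2, the translocase, had 1 identifier for each of 3 patterns. DN1677_c0_g1 was at 404 and 350 CPM in *Comephorus* and at 8.53 and 5.42 CPM in *B. nikolskii* and *B. multiradiatus*, a log2 difference of 5.59 ± 0.69 (limma, adjusted p = 0.0107). DN4079_c0_g1 ran the other way, at 22.5 and 0.517 CPM in *C. dybowski* and *C. baicalensis* against 915 and 584 CPM in *B. nikolskii* and *B. multiradiatus* (log2 difference -6.94 ± 1.55, limma, adjusted p = 0.0273). DN13109_c0_g1, the one without another title, was an identifier of *C. dybowski* with 1038 CPM. It was at 0.329 CPM in *C. baicalensis* and at 20.7 and 10.9 CPM in *B. nikolskii* and *B. multiradiatus*, so that the range of *Comephorus* enclosed that of *Batrachocottus* (limma, adjusted p = 0.754). DN1677_c0_g1 also carries titles of Hermansky-Pudlak syndrome protein 3, a cleavage and polyadenylation factor subunit and a high density lipoprotein-binding protein, and DN4079_c0_g1 that of an RNA phosphatase.

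**Figure D1:**
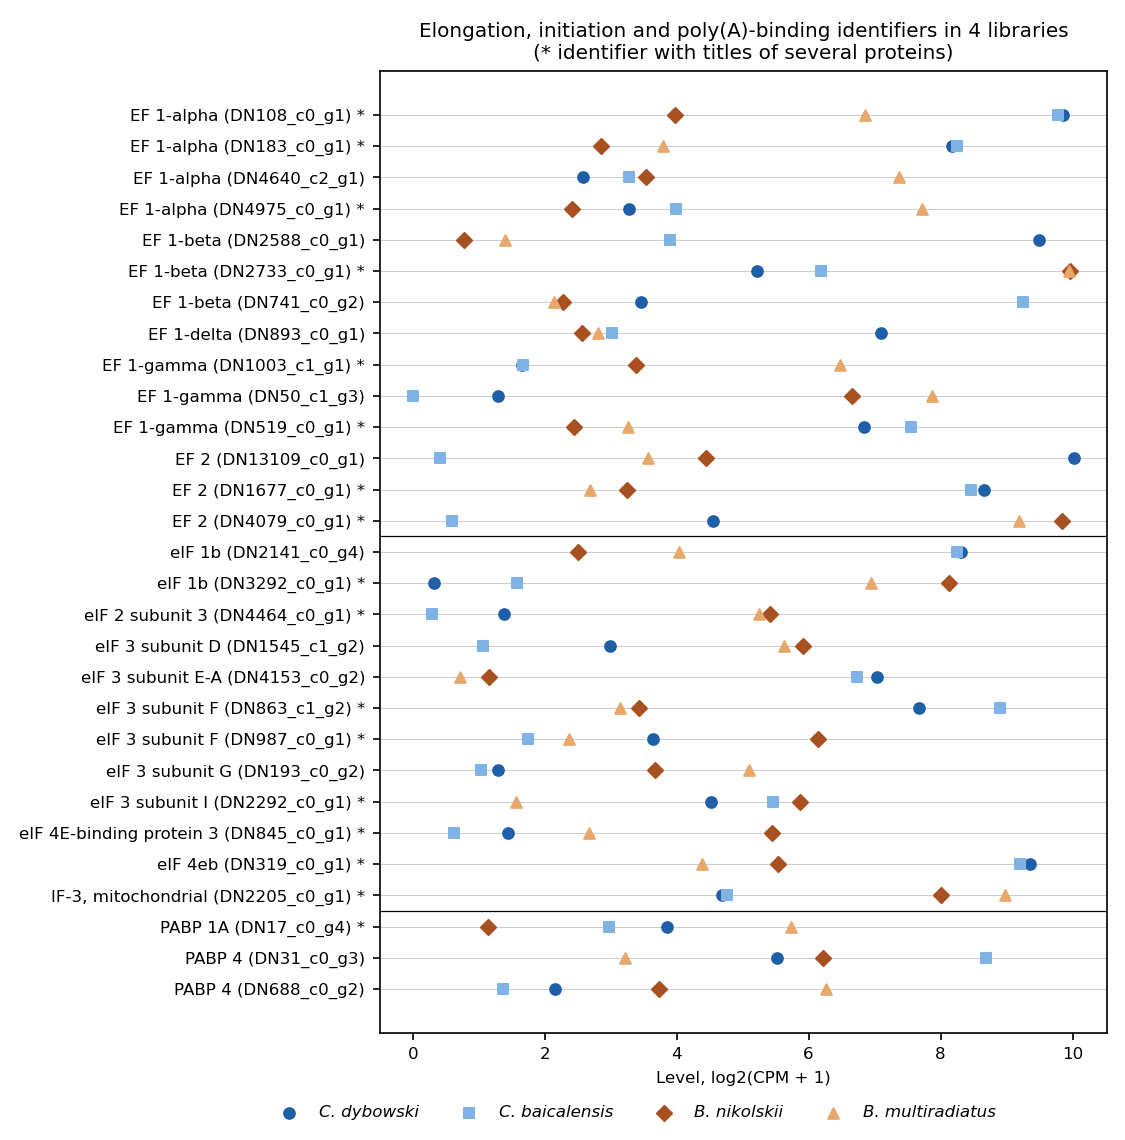
Level of each of the 29 identifiers (rows, elongation above initiation above poly(A)-binding) in the 4 libraries, on a log2(CPM + 1) axis. Points are single libraries, and a star marks an identifier that also carries the title of another protein. In DN183_c0_g1, DN1677_c0_g1 and DN2141_c0_g4 the blue points of *Comephorus* lie far to the right of the brown points of *Batrachocottus*, whereas DN13109_c0_g1 has *C. dybowski* at the right end and *C. baicalensis* at the left.

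Among initiation factors, factor 1b had an identifier for each genus. DN2141_c0_g4, with no other title, was at 317 and 304 CPM in *C. dybowski* and *C. baicalensis*, against 4.66 and 15.4 CPM in *B. nikolskii* and *B. multiradiatus* (log2 difference 5.02 ± 0.85, limma, adjusted p = 0.0162). DN3292_c0_g1 was at 0.253 and 1.98 CPM in *Comephorus* and at 278 and 122 CPM in the *Batrachocottus* species (log2 difference -6.58 ± 0.89, limma, adjusted p = 0.0128), and it also carries the title of SUMO-activating enzyme subunit 1. The pelagic and benthic species thus differed in which of the 2 identifiers was high. How much of the benthic level of DN3292_c0_g1 belongs to the factor was not tested.

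Initiation factor 2 was represented by its subunit 3, the GTP-binding part, in DN4464_c0_g1. It was at 1.61 and 0.226 CPM in *Comephorus*, against 41.4 and 37.0 CPM in *B. nikolskii* and *B. multiradiatus*. The benthic libraries were close together and both far above the pelagic ones, with a called log2 difference of -4.49 ± 0.89 (limma, adjusted p = 0.0213). The identifier also carries the title of m-AAA protease-interacting protein 1.

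Factor 3 had 6 identifiers for 5 subunits, and they did not move as a block. Subunit E-A (DN4153_c0_g2) was at 130 and 105 CPM in *C. dybowski* and *C. baicalensis*, against 1.23 and 0.649 CPM in *B. nikolskii* and *B. multiradiatus* (log2 difference 5.94 ± 0.69, limma, adjusted p = 0.0103). Subunit F (DN863_c1_g2, also titled MICOS subunit MIC26) was at 202 and 475 CPM in *Comephorus* and at 9.73 and 7.83 CPM in the *Batrachocottus* species (log2 difference 5.00 ± 0.79, limma, adjusted p = 0.0156). Both of these were higher in *Comephorus*, and the next 2 subunits, each with no other title, were lower there. Subunit D (DN1545_c1_g2), known in mammals to bind the cap of some messengers itself, was at 6.91 and 1.101 CPM in *Comephorus* and at 59.4 and 48.5 CPM in *B. nikolskii* and *B. multiradiatus* (log2 difference -3.75 ± 0.95, limma, adjusted p = 0.0356). Subunit G (DN193_c0_g2) was at 1.44 and 1.05 CPM in *Comephorus* against 11.7 and 33.4 CPM in *B. nikolskii* and *B. multiradiatus*, without overlap and without a call (limma, adjusted p = 0.0618).

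A second identifier of subunit F and that of subunit I separated the benthic species instead. DN987_c0_g1 (subunit F, also titled pleckstrin homology domain-containing family A member 1) was at 11.5 and 2.36 CPM in *C. dybowski* and *C. baicalensis*, against 69.8 CPM in *B. nikolskii* and 4.19 CPM in *B. multiradiatus*. DN2292_c0_g1 (subunit I, also titled sestrin-2) was at 21.9 and 42.9 CPM in *Comephorus*, and at 57.4 CPM in *B. nikolskii* and 1.97 CPM in *B. multiradiatus*. In both, *B. nikolskii* was the highest library and the genera overlapped (limma, adjusted p = 0.424 and 0.509).

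Identifiers of the cap-binding protein and of its inhibitor had their higher values in opposite genera. DN319_c0_g1, titled initiation factor 4eb and ribosomal protein uS4, was at 657 and 588 CPM in *C. dybowski* and *C. baicalensis*, against 45.6 and 19.9 CPM in *B. nikolskii* and *B. multiradiatus* (log2 difference 4.32 ± 0.78, limma, adjusted p = 0.0182). Ribosomal proteins are abundant, and how much of this level belongs to the initiation factor was not tested. DN845_c0_g1, titled 4E-binding protein 3 and S-formylglutathione hydrolase, was at 1.73 and 0.539 CPM in *Comephorus* and at 42.5 and 5.34 CPM in *B. nikolskii* and *B. multiradiatus*. The 4E-binding proteins block the cap-binding factor until they are phosphorylated. The groups of this identifier did not overlap, but the benthic species differed 7.95-fold and limma made no call (adjusted p = 0.140).

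Mitochondrial initiation factor 3, which serves the ribosomes inside mitochondria, was carried by DN2205_c0_g1 together with titles of protein disulfide-isomerase A6 and hippocalcin-like protein 1. It was at 24.8 and 26.1 CPM in *Comephorus* and at 257 and 503 CPM in *B. nikolskii* and *B. multiradiatus*. The pelagic libraries were nearly equal and both below the benthic ones, with a called log2 difference of -3.77 ± 0.74 (limma, adjusted p = 0.0211).

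Poly(A)-binding proteins had 3 identifiers, and limma called none of them between the genera. DN31_c0_g3 (poly(A)-binding protein 4) was at 44.7 and 413 CPM in *C. dybowski* and *C. baicalensis*, against 73.5 and 8.27 CPM in *B. nikolskii* and *B. multiradiatus*. DN688_c0_g2, with the same title, was at 3.45 and 1.58 CPM in *Comephorus* and at 12.3 and 75.7 CPM in the *Batrachocottus* species. DN17_c0_g4, titled poly(A)-binding protein 1A and myozenin-1a, a protein of the muscle Z-disc, was at 13.4 and 6.87 CPM in *Comephorus* and at 1.20 CPM in *B. nikolskii* and 52.4 CPM in *B. multiradiatus*. The genera did not overlap for DN688_c0_g2, with *Batrachocottus* above, and overlapped for the other 2. The adjusted p of limma was 0.266, 0.0843 and 0.990 in the order given. At an unadjusted p under 0.05 in limma were 0 of the 3 and 482 of all 792 identifiers, and with 3 members the difference shows nothing particular to them. On counts edgeR called 0, and DESeq2 called DN688_c0_g2 lower (adjusted p = 3.17e-05) and DN31_c0_g3 higher in *Comephorus* (adjusted p = 0.0477). DESeq2 called 10 higher and 7 lower of the 20 members with counts for both genera, and its share over all identifiers is not given. The identifier dropped for its actin title, DN15_c0_g1, also has titles of poly(A)-binding protein 1A, a proteasome activator and an ATPase of protein quality control, and was at 17.4 and 38.8 CPM in *Comephorus* and at 11849 and 31063 CPM in *B. nikolskii* and *B. multiradiatus*.

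Over all 29 members, limma called 8 as higher and 7 as lower in *Comephorus*, which is 51.7% of them, and 53.3% of all 792 identifiers were called (29.3% higher and 24.0% lower). The share of members was therefore near the background. Elongation factors had 4 calls higher and 3 lower in *Comephorus* of 14, and initiation factors had 4 and 4 of 12. Their median log2 differences were 1.79 for elongation and -2.29 for initiation, against 1.40 over the 792 identifiers. Over identifiers with the title of 1 protein the medians were 1.79 and 0.90, against 1.93 over all such identifiers, so the sign for initiation turned. The median over the 792 was 0.03 without *C. dybowski*, 0.05 without *C. baicalensis*, 1.12 without *B. nikolskii* and 1.02 without *B. multiradiatus*. Whether the roles differ in their medians was not tested. Of the 12 members with the title of 1 protein, 2 were called in each direction: DN2141_c0_g4 and DN4153_c0_g2 higher in *Comephorus*, and DN50_c1_g3 and DN1545_c1_g2 lower. That is 33.3% of them, against 50.0% of the 318 identifiers with the title of 1 protein. Most of these calls were lost when a species was left out, which leaves 1 library in a genus, and the loss differed by species. The log2 differences of the called members kept their direction in each such fit. Without *B. nikolskii* that of DN1677_c0_g1 was 5.88 and that of DN4153_c0_g2 was 6.16, while that of DN108_c0_g1 was 2.96, against 5.84 without *B. multiradiatus*. DN4079_c0_g1 was at -8.91 without *C. dybowski* and at -4.96 without *C. baicalensis*, and DN1545_c1_g2 at -4.70 and -2.79. The share of all identifiers called in these fits is not given. Whether the loss is particular to the members was not tested. On read estimates recovered from the same normalized values, edgeR called 7 higher and 2 lower. The share of all identifiers called in that fit is not given, so the lower number shows nothing particular to the members. In that fit edgeR did not call DN108_c0_g1, DN4464_c0_g1, DN4079_c0_g1, DN2205_c0_g1, DN50_c1_g3 and DN1545_c1_g2, which limma called on the normalized values. On the deposited counts edgeR called DN2205_c0_g1 (adjusted p = 0.0384), and DESeq2 called DN2205_c0_g1, DN108_c0_g1 and DN1545_c1_g2, each in the same direction as limma. DESeq2 called more of the members than edgeR did on these counts, and its share over all identifiers is not given.

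**Figure D2:**
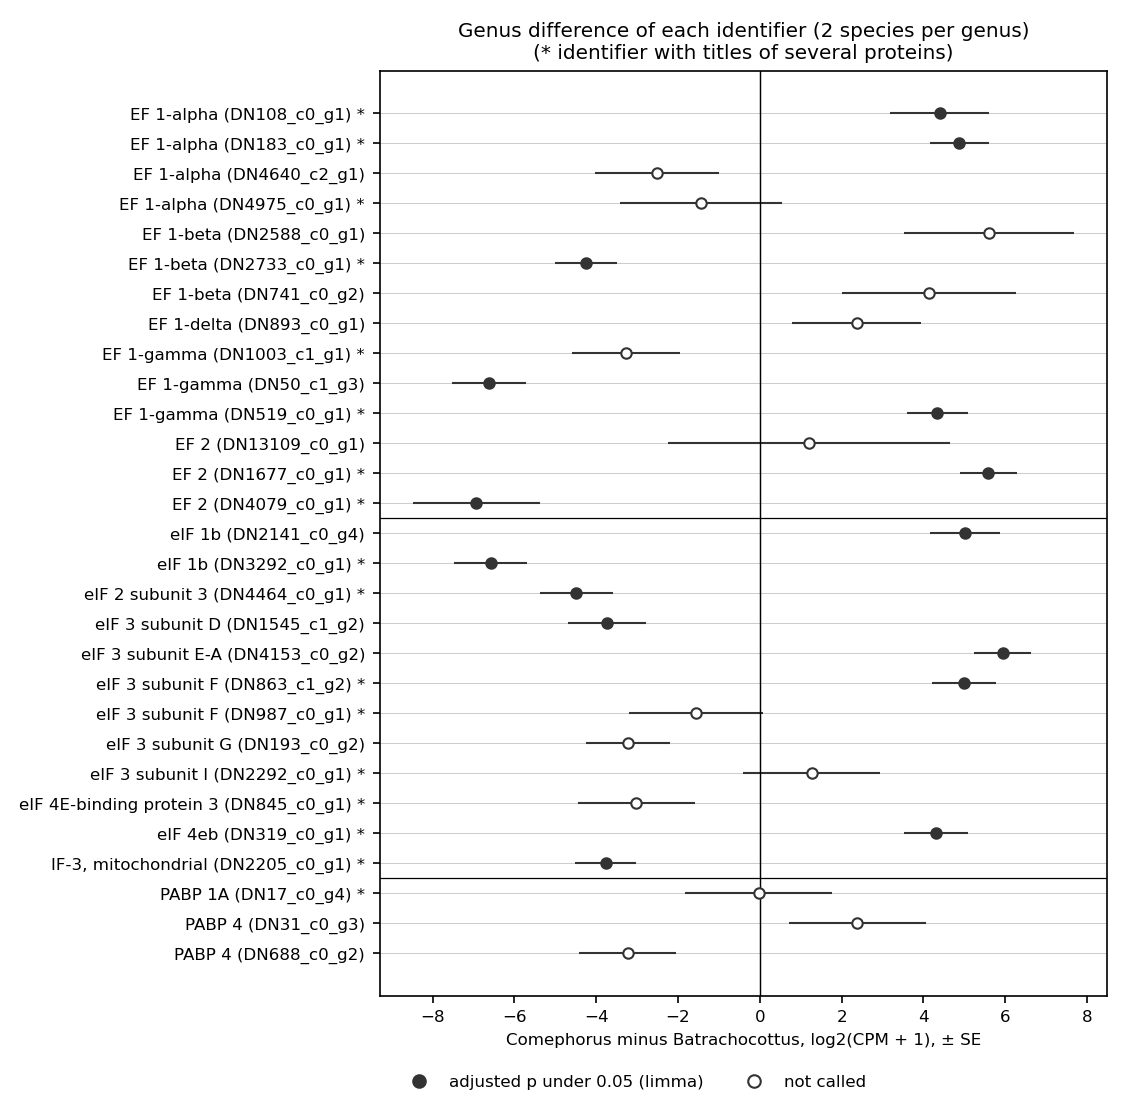
Log2 difference of each identifier, *Comephorus* minus *Batrachocottus*, on log2(CPM + 1), with bars of 1 SE from limma over 2 species per genus. Filled points are the 15 calls at an adjusted p under 0.05, 8 to the right of 0 and 7 to the left, and identifiers of the same factor, such as those of elongation factor 2, fall on both sides.

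Without regard to a test, both *Comephorus* libraries were above both *Batrachocottus* libraries for 11 members and under them for 12, while 6 had overlapping ranges. Ranges did not overlap for 79.3% of the members and for 84.5% of the 792 identifiers (44.6% with *Comephorus* above and 39.9% with it below). A gap of at least 4-fold in each of the 4 pairs that cross the genera was found for 9 members higher and 8 lower in *Comephorus*, and for 59.7% of all identifiers (33.1% and 26.6%). *C. baicalensis* was the highest library for 5 members, and each of the other 3 species for 8.

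The deposited counts gave fewer calls. They leave an identifier out for a genus unless it passes about 1 CPM in each of the 2 libraries, and an identifier left out is not shown to be at 0. They hold 20 of the members for both genera, 2 for *Comephorus* alone and 7 for *Batrachocottus* alone. Of the 20, edgeR's quasi-likelihood test called 6 higher and 2 lower in *Comephorus*, and over the 4755 identifiers listed for both genera 9.21% were called (5.01% higher and 4.21% lower). The 6 were DN183_c0_g1 (elongation factor 1-alpha), DN519_c0_g1 (1-gamma), DN1677_c0_g1 (elongation factor 2), DN2141_c0_g4 (initiation factor 1b), DN863_c1_g2 (factor 3 subunit F) and DN319_c0_g1 (factor 4eb). The 2 were DN2733_c0_g1 (elongation factor 1-beta) and DN2205_c0_g1 (mitochondrial initiation factor 3), and their adjusted p in edgeR ranged from 0.0177 to 0.0404 over the 8. The members come from a table selected for differences. Of the 537 identifiers of that table with counts for both genera 46.4% were called, and of the 20 members 40.0%. DN108_c0_g1 (1-alpha), called on normalized values, was not called by edgeR on counts (log2 difference 3.72, edgeR, adjusted p = 0.111), nor was DN1545_c1_g2 (subunit D, -3.75, adjusted p = 0.0789). DESeq2 called both on the same counts and in the same direction (adjusted p = 0.00017 and 2.88e-05). It called 10 higher and 7 lower of the 20, more than edgeR, and its share over all identifiers is not given. Its calls therefore add no independent evidence for these 2 identifiers. The calls on counts also changed with the species left out, which leaves 1 library in a genus, while the 8 kept their direction. The log2 difference of DN741_c0_g2 on counts was 7.44 without *C. dybowski* and 1.43 without *C. baicalensis*, and that of DN1545_c1_g2 was -5.55 and -2.98.

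The assemblies were made species by species and then joined, so that a factor can be spread over several identifiers. Of the member titles, 7 are carried by at least 2 identifiers, and their sums were set beside the single identifiers. An identifier with several titles enters in full, and how near-identical sequences shared reads was not tested. For elongation factor 1-beta, the sums were 762 and 691 CPM in *C. dybowski* and *C. baicalensis* and 999.9 and 992 CPM in *B. nikolskii* and *B. multiradiatus*. The highest library was 1.45-fold above the lowest, although the 3 identifiers differed between the genera by at least 4.14 on the log2 scale. DN2588_c0_g1 held 93.9% of the sum in *C. dybowski*, DN741_c0_g2 held 87.5% in *C. baicalensis*, and DN2733_c0_g1 held 99.5% in each *Batrachocottus* species. The sums of the genera still did not overlap, with a log2 difference of -0.46 (pooled SD 0.07, n = 2 species per genus).

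Elongation factor 2 and elongation factor 1-gamma had sums that overlapped between the genera. For elongation factor 2 these were 1465 and 351 CPM in *C. dybowski* and *C. baicalensis* and 944 and 600.0 CPM in *B. nikolskii* and *B. multiradiatus*. DN13109_c0_g1 led in *C. dybowski* with 70.9%, DN1677_c0_g1 in *C. baicalensis* with 99.8%, and DN4079_c0_g1 in the benthic species with 96.9% and 97.3%. The 3156-fold difference of DN13109_c0_g1 between the *Comephorus* species became a 4.17-fold difference of the sum, and the log2 difference between the genera was -0.07 (pooled SD 1.08). For elongation factor 1-gamma the sums were 118 and 190 CPM in *Comephorus* and 114 and 330 CPM in *B. nikolskii* and *B. multiradiatus*, a log2 difference of -0.38 (pooled SD 0.84). The genus differences of these 2 sums were smaller than the spread between species of a genus.

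Initiation factor 1b gave sums of 317 and 306 CPM in *C. dybowski* and *C. baicalensis* and of 282 and 137 CPM in *B. nikolskii* and *B. multiradiatus*, a log2 difference of 0.66 (pooled SD 0.52), against 5.02 and -6.58 for its identifiers. For poly(A)-binding protein 4, *B. nikolskii* and *B. multiradiatus* had nearly the same sum (85.8 and 83.9 CPM) from different leading identifiers, and *C. baicalensis* with 415 CPM remained above *C. dybowski* with 48.2 CPM. The benthic difference of up to 8.89-fold in an identifier was thus absent from the sum, and the pelagic difference was not.

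Elongation factor 1-alpha and initiation factor 3 subunit F were the exceptions among the 7 titles. Sums of elongation factor 1-alpha were 1222 and 1210 CPM in *C. dybowski* and *C. baicalensis*, against 36.0 CPM in *B. nikolskii* and 502 CPM in *B. multiradiatus*, a log2 difference of 3.16 (pooled SD 1.88). Both pelagic libraries stayed above both benthic ones, but these sums rest on DN108_c0_g1 and DN183_c0_g1 with their other titles. The identifier with the title of 1 protein, DN4640_c2_g1, gave the opposite direction (-2.52). Subunit F summed to 214 and 478 CPM in *Comephorus* and to 79.5 and 12.02 CPM in *B. nikolskii* and *B. multiradiatus*, a log2 difference of 3.31 (pooled SD 1.44). In all, 5 of the 7 sums were within 2-fold between the genera by their mean log2 levels (71.4%). The same held for 64 of the 172 titles that at least 2 identifiers of the normalized tables carry (37.2%). Poly(A)-binding protein 4 is among the 5, with a log2 difference of 0.74 (pooled SD 1.54), although its mean CPM was 2.73-fold higher in *Comephorus*. The sum differed less than every identifier of its title for 5 of the 7 (71.4%) and for 102 of the 172 (59.3%). Except for poly(A)-binding protein 4, whose identifiers carry 1 title each, the closeness of the sums needs the identifiers with several titles. Over those with the title of 1 protein, the log2 difference was 6.85 for elongation factor 1-beta, -6.62 for 1-gamma, 1.21 for elongation factor 2 and 5.02 for initiation factor 1b. These are descriptions of titles and were not tested, and identifiers with untitled or unread entries may hold more reads of the same factors.

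**Figure D3:**
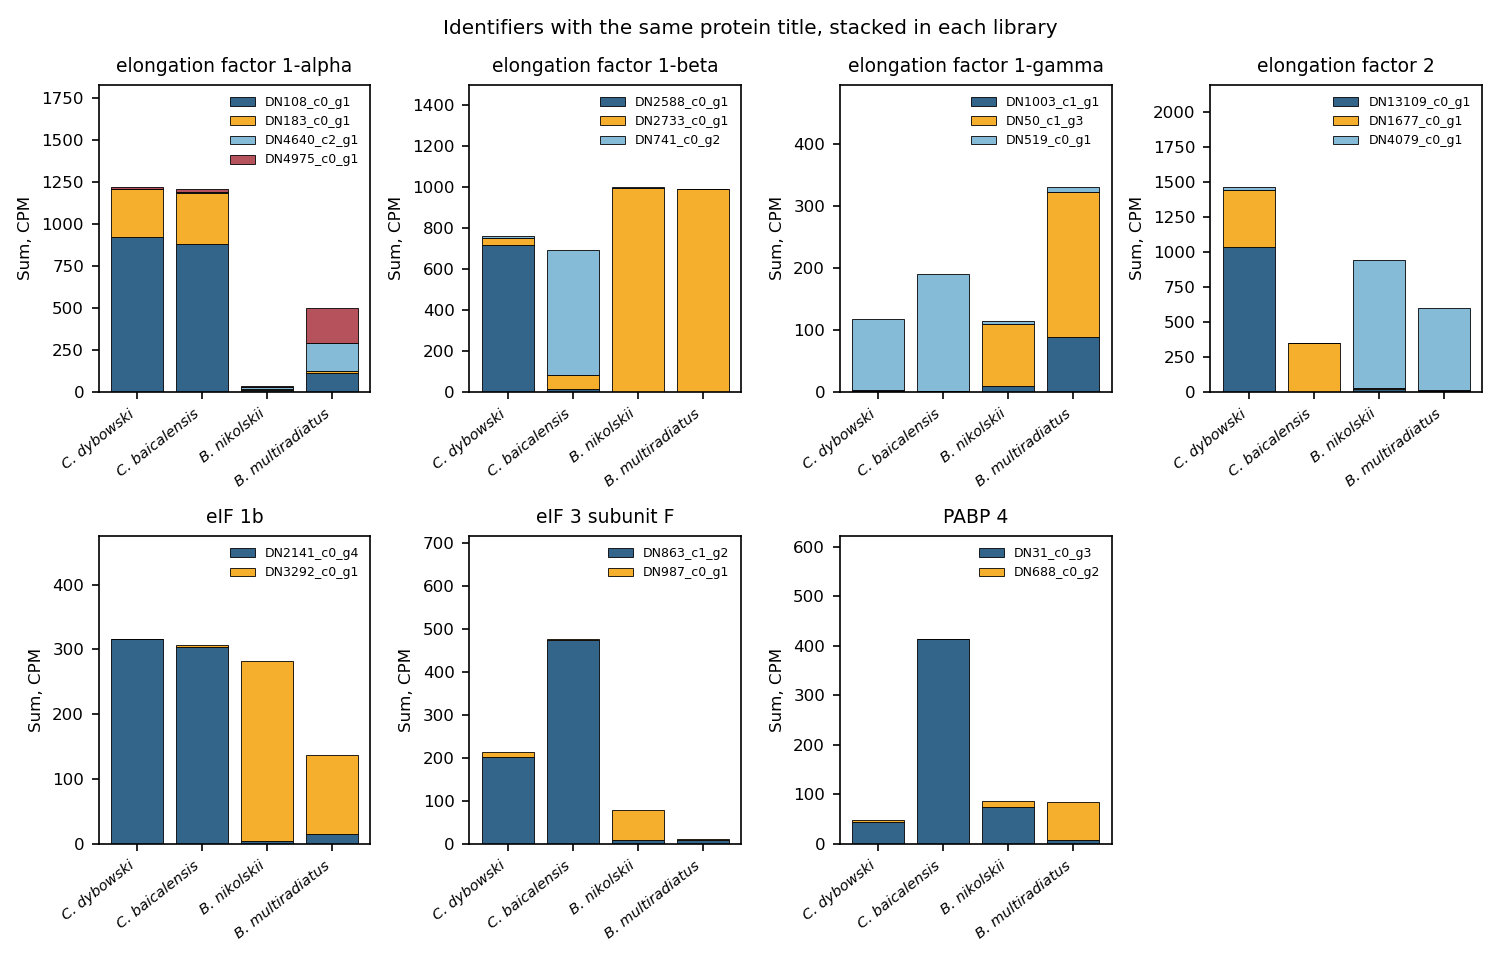
Summed level, in CPM, of the identifiers that share a protein title (7 panels), stacked by identifier in each library on linear axes that start at 0. For elongation factor 1-beta the colour that fills most of the bar differs between the *Comephorus* species, and both *Batrachocottus* species share another. The height of these bars stays between 691 and 999.9 CPM. For elongation factor 1-alpha the bar of *B. nikolskii* stays near the axis at 36.0 CPM.

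Complexes were summed in the same way. The beta, delta and gamma subunits of elongation factor 1 came to 1015 and 888 CPM in *C. dybowski* and *C. baicalensis*, against 1119 and 1328 CPM in *B. nikolskii* and *B. multiradiatus*. The benthic sums were the higher ones, but DN2733_c0_g1 with its F-box title held most of them. Over the 4 identifiers of the complex with the title of 1 protein, the sums were 862 and 626 CPM in *Comephorus* and 109 and 245 CPM in *B. nikolskii* and *B. multiradiatus*, so that the direction turned. The 6 identifiers of initiation factor 3 came to 374 and 628 CPM in *Comephorus* and to 209 and 96.5 CPM in *B. nikolskii* and *B. multiradiatus*. Without subunit F the remaining 4 came to 160.0 and 150.4 CPM in *Comephorus* and to 129.7 and 84.5 CPM in the *Batrachocottus* species.

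Elongation was then set against initiation in each library. Elongation factor identifiers summed to 3701 and 2448 CPM in the *Comephorus* species and to 2099 and 2430 CPM in *B. nikolskii* and *B. multiradiatus*. *Comephorus* lay above *Batrachocottus*, by 0.41 on the log2 scale (pooled SD 0.32), with *C. baicalensis* and *B. multiradiatus* almost equal. Initiation factor identifiers summed to 1375 and 1549 CPM in *Comephorus* and to 878 and 799 CPM in *B. nikolskii* and *B. multiradiatus*. Here the pelagic libraries were apart from the benthic ones by 0.80 on the log2 scale (pooled SD 0.11). Poly(A)-binding identifiers summed to 61.6 and 422 CPM in *Comephorus* and to 87.0 and 136 CPM in *Batrachocottus*, and *C. baicalensis* was the high library.

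The ratio of elongation to initiation was 2.69 and 1.58 in *C. dybowski* and *C. baicalensis*, against 2.39 and 3.04 in *B. nikolskii* and *B. multiradiatus*. *C. baicalensis* had the lowest ratio and *B. multiradiatus* the highest, and the genera overlapped (log2 difference -0.39, pooled SD 0.42). With 2 species per genus an exact test cannot reach a p under 0.05, and none was made on these sums.

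The sums rest on few identifiers. In elongation, DN13109_c0_g1 made up 28.1% of the sum in *C. dybowski*, DN108_c0_g1 36.0% in *C. baicalensis*, and DN2733_c0_g1 47.4% and 40.6% in *B. nikolskii* and *B. multiradiatus*. In initiation, DN319_c0_g1 made up 47.7% and 37.9% in *C. dybowski* and *C. baicalensis*, DN3292_c0_g1 31.6% in *B. nikolskii*, and mitochondrial DN2205_c0_g1 63.0% in *B. multiradiatus*. The most abundant identifier over the 4 libraries was DN2733_c0_g1 in elongation, higher in *Batrachocottus*, and DN319_c0_g1 in initiation, higher in *Comephorus*. Without them, the difference of the initiation sums was 0.0451 on the log2 scale, and that of the ratio turned to 1.18 (pooled SD 0.58). The ratios were then 5.10 and 2.47 in *Comephorus* against 1.32 and 1.85 in *B. nikolskii* and *B. multiradiatus*. Removing these identifiers raises the ratio of *Comephorus* against *Batrachocottus* by construction, so no conclusion is drawn from the turn. With 4E-binding protein 3 and the mitochondrial factor left out, the initiation difference was 1.81. The difference of the ratio was then -1.39 (pooled SD 0.72), with ratios of 2.74 and 1.61 in *Comephorus* against 3.63 and 8.37 in the *Batrachocottus* species. Both identifiers left out here were higher in *Batrachocottus*, which moves the ratio the other way by construction. The genera did not overlap in either setting, and the directions were opposite.

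**Figure D4:**
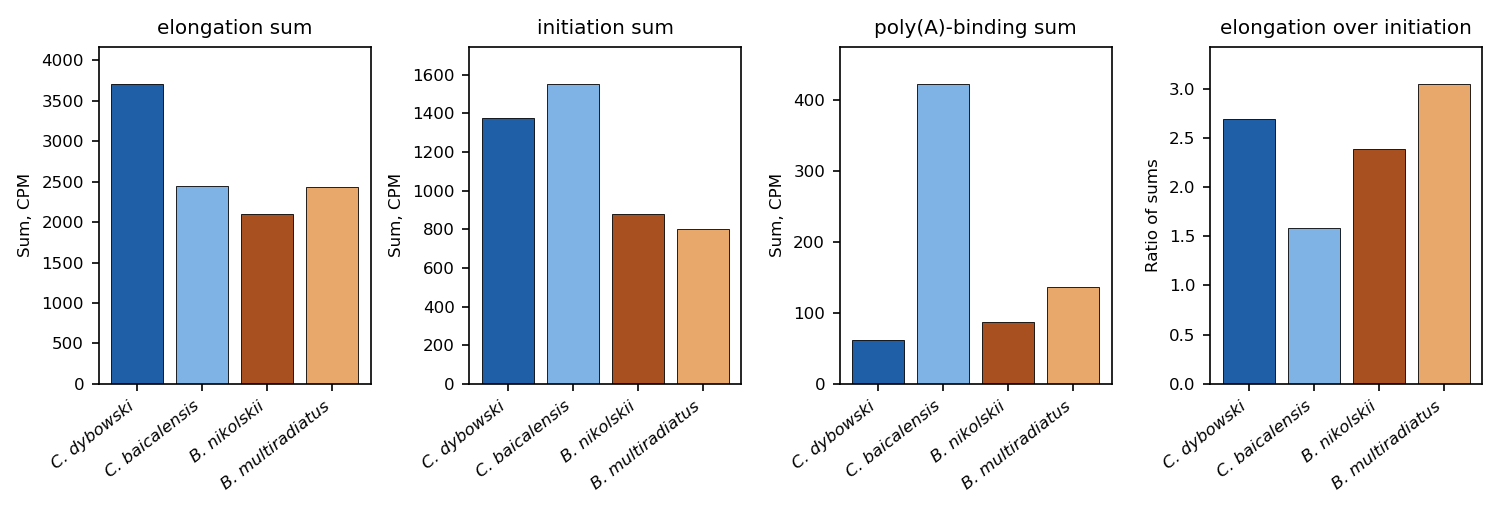
Summed CPM of elongation, initiation and poly(A)-binding identifiers, and the ratio of elongation to initiation, in the 4 libraries (1 bar per library, axes from 0). The initiation bars of both *Comephorus* species, at 1375 and 1549 CPM, stand above those of *B. nikolskii* and *B. multiradiatus* at 878 and 799 CPM, and the ratio runs from 1.58 in *C. baicalensis* to 3.04 in *B. multiradiatus*.

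Large gaps also occurred within a genus. Between the *Comephorus* species, 6 members were at least 4-fold apart on the scale of CPM + 1, with *C. dybowski* above for 4 and *C. baicalensis* for 2, where 26.5% of all identifiers were this far apart (12.4% and 14.1%). They comprise 5 of the 14 elongation identifiers, 0 of the 12 initiation identifiers and 1 of the 3 poly(A)-binding ones. Higher in *C. dybowski* were DN13109_c0_g1 (elongation factor 2), DN2588_c0_g1 (1-beta, 51.4-fold), DN893_c0_g1 (1-delta, 19.0-fold) and DN4079_c0_g1 (elongation factor 2, 43.6-fold). Higher in *C. baicalensis* were DN741_c0_g2 (1-beta, 60.6-fold) and DN31_c0_g3 (poly(A)-binding protein 4, 9.24-fold), these folds being ratios of CPM. With 0.1 in place of 1 added to the CPM, 6 elongation and 4 initiation identifiers passed, where 35.1% of all identifiers did. The absence of initiation factors thus holds for the scale used and not for low levels.

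Between the *Batrachocottus* species, 10 members were at least 4-fold apart, with *B. nikolskii* above for 4 and *B. multiradiatus* for 6, where 30.2% of all identifiers were (17.0% and 13.1%). The 4 elongation identifiers among them were all higher in *B. multiradiatus*: DN4975_c0_g1 (48.4-fold), DN4640_c2_g1 (15.5-fold) and DN108_c0_g1 (7.81-fold) of the alpha factor and DN1003_c1_g1 (9.34-fold) of the gamma subunit. The 3 initiation identifiers were all higher in *B. nikolskii*: DN2292_c0_g1 (subunit I, 29.1-fold), DN987_c0_g1 (subunit F, 16.7-fold) and DN845_c0_g1 (4E-binding protein 3, 7.95-fold), and each of the 3 also has another title. All 3 poly(A)-binding identifiers passed, DN31_c0_g3 (8.89-fold) higher in *B. nikolskii*, and DN17_c0_g4 (43.5-fold) and DN688_c0_g2 (6.16-fold) higher in *B. multiradiatus*. Each value compares 2 pooled libraries, and whether the roles differ in these shares was not tested.

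Other proteins of translation were listed by title beside the factors. The 12 such identifiers cover aminoacyl-tRNA ligases and their scaffold, mimics of initiation factor 5, the kinase GCN2, a density-regulated protein and nascent chain proteins. Only 3 of the 12 carry the title of 1 protein, and DN3705_c0_g1 also carries an actin title. In identifiers with several titles, reads of the translation protein cannot be told apart from those of the other protein. Limma called 5 of the 12 higher and 2 lower in *Comephorus*, which is 58.3% against 53.3% of all identifiers. The median log2 difference was 3.23 against 1.40. GCN2, which phosphorylates initiation factor 2 when amino acids run short, shares DN6826_c0_g1 with a proteasome subunit title. This identifier was at 137 and 126 CPM in *Comephorus*, against 1.52 and 9.56 CPM in *B. nikolskii* and *B. multiradiatus* (log2 difference 4.68, limma, adjusted p = 0.0235). DN117_c0_g2, titled transcription factor BTF3 homolog 4 and skeletal myosin light polypeptide 3, was at 10387 and 40235 CPM in *Comephorus* and at 215 and 162 CPM in the *Batrachocottus* species (log2 difference 6.77, limma, adjusted p = 0.0143). In the other direction, an eIF5-mimic (DN617_c1_g2) was at 1.86 and 8.00 CPM in *Comephorus* and at 43.4 and 47.0 CPM in *B. nikolskii* and *B. multiradiatus* (log2 difference -3.19, limma, adjusted p = 0.0432). A second identifier with this title and that of Tob1, DN41_c0_g2, named after its values were seen, was at 44.5 and 40.8 CPM in *Comephorus* and at 1.82 and 0.138 CPM in *B. nikolskii* and *B. multiradiatus* (log2 difference 4.61, limma, adjusted p = 0.0213). Their sums were 46.4 and 48.8 CPM in *Comephorus* and 45.2 and 47.1 CPM in *B. nikolskii* and *B. multiradiatus*. The alpha subunit of the nascent polypeptide-associated complex (DN1209_c0_g2, also titled phosphoglucomutase-1) was at 2.78 and 2.44 CPM in *Comephorus* and at 109 and 25.6 CPM in *B. nikolskii* and *B. multiradiatus* (log2 difference -3.91, limma, adjusted p = 0.0351).

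The libraries held 54508410 to 59156409 listed counts, and the adjusted library sizes behind the CPM ran from 52881427 in *C. baicalensis* to 68019696 in *B. nikolskii*. Of 101 cytosolic ribosomal protein identifiers, which include DN319_c0_g1, limma called 36 higher and 23 lower in *Comephorus*. That is 58.4%, near the 53.3% of all identifiers. They summed to 65917 and 46600 CPM in *Comephorus* and to 38265 and 32743 CPM in *Batrachocottus*. Skeletal muscle markers (28 identifiers, 9 called higher and 6 lower, or 53.6%) summed to 107201 to 137985 CPM over the 4 libraries. Markers of other cell types moved with the genus or with single libraries. Hemoglobin titles (9 identifiers, 5 called higher and 2 lower in *Comephorus*, or 77.8%) summed to 3382 and 3131 CPM in *Comephorus* and 1096 and 734 CPM in *Batrachocottus*. Keratins (7, with 2 and 0, or 28.6%) summed to 183 and 589 and to 29.0 and 894 CPM. Liver or egg proteins (7, with 0 and 0) summed to 46.6 and 168 and to 1551 and 132 CPM. Collagen (2 identifiers, 0 and 1 called) was at 14.1 and 138 and at 855 and 518 CPM, perilipin at 2.21 and 30.8 and at 0.488 and 70.5 CPM, and immunoglobulin mu at 2.62 and 2.36 and at 105 and 3.36 CPM. The title of 1 protein is carried by 45 of the 101 ribosomal, 10 of the 28 muscle, 4 of the 9 hemoglobin and 3 of the 7 keratin identifiers. It is carried by 4 of the 7 liver or egg identifiers and by that of perilipin, but by 0 of the 2 for collagen and not by that of immunoglobulin mu. In the rest, reads of the marker cannot be told apart from those of the other protein. No member belongs to the lists of other cell types or of skeletal muscle, and their part in the levels of the factors was not tested.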

How the data were processed

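Skeletal muscle RNA of 4 sculpin species was sequenced by the authors as 1 pooled, non-directional library per species. They trimmed the reads with Trimmomatic (version 0.36), built a Trinity assembly for every species, joined the assemblies with CD-HIT and quantified them with Salmon. The deposited unnormalized tables hold estimated counts per Trinity gene identifier, given as whole numbers and filtered by genus. The deposited normalized tables hold CPM of an adjusted library size from edgeR 4.0.3 for the 792 identifiers the authors called between at least 1 pair of species. Protein titles were read from 1325 rows of a supplementary table of which a part is not used here, so further titles may exist and no overlap or enrichment was computed.

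The genus contrast was fitted to log2(CPM + 1) of the 792 identifiers by limma 3.58.1 with a trend, and to the estimated counts of the 4755 identifiers listed for both genera by edgeR 4.0.16 (quasi-likelihood test, TMM), in R 4.3.3, with Benjamini-Hochberg adjustment over all identifiers of a fit and a call at an adjusted p under 0.05. Both were tested on simulated data, where both missed all of the smallest changes. Of the larger ones, limma on the normalized identifiers missed most of the middle size and a part of the largest. EdgeR on counts missed a smaller part of each. A missing call therefore does not show equal levels. Sums, shares and folds within a genus are descriptions. Pooled SDs are those of the log2 values of the species around their genus means. All 29 members are named, with sums for titles that at least 2 of them carry and, of other translation proteins, the 2 largest differences in each direction. Members and lists were chosen with earlier results of these data known. Alternatives were other pseudocounts, a filter on low values, DESeq2 1.42.0, no count filter, edgeR on read estimates recovered from CPM, identifiers with the title of 1 protein, other sums, and leaving out each library. Limits and SEs cover neither individual fish nor, for the limit of a value of 0, more than counting error.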

Additional observations from a re-analysis of the deposited data

How the results depend on the processing

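No paired analysis was possible because the labels give no replicate numbers and the species of the genera do not correspond. The counts of members called on normalized values were within 1.5 times of the stated ones with pseudocounts of 0.1 and 10 and with a filter on low values (8 higher and 7 lower in *Comephorus* each time). With edgeR on recovered read estimates and the authors' library sizes, chosen after seeing the data, 7 were higher and 2 lower. The share of all identifiers called by edgeR on these estimates is not given. Among members with the title of 1 protein, limma in the main setting called 2 and 2. Leaving out each library gave 0 to 6 higher and 0 to 3 lower on normalized values, and 0 to 7 and 0 to 1 on counts. A genus then has 1 library, assumed to vary as the other genus does. The share of all identifiers called in these fits is not given, so the counts show nothing particular to the members. On counts, that share is not given either for DESeq2 or for the fit without a filter, so their numbers of calls show nothing particular to the members. DESeq2 called 10 higher and 7 lower, and with no filter and unlisted values set to 0 there were 11 and 13. The latter include the 2 members listed for *Comephorus* alone and the 7 listed for *Batrachocottus* alone. Their calls follow from the 0 given to the other genus and are no evidence. DN13109_c0_g1, at 1038 CPM in *C. dybowski* on normalized values, was thus set to 0 in *Comephorus*.

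The genus difference of the elongation sum (log2) was 2.18 for identifiers with 1 title, 1.23 without the most abundant identifier and 0.76 as a median of log2 values. That of the initiation sum was 2.32, 0.0451 and -1.18 in these settings, and 1.81 without 4E-binding protein 3 and the mitochondrial factor. The poly(A)-binding sum gave -1.80 without the most abundant identifier and -1.32 as a median. The ratio of elongation to initiation gave -0.14 for identifiers with 1 title, 1.18 without the most abundant identifier of each role and 1.94 as a median. Without 4E-binding protein 3 and the mitochondrial factor it gave -1.39. The shifts to 1.18 and -1.39 take the direction set by the levels of the identifiers left out. With each library left out, chosen after seeing the data, the elongation sum gave 0.12 to 0.71, the initiation sum 0.71 to 0.89, the poly(A)-binding sum -0.82 to 1.95 and the ratio -0.77 to -0.0022. With a pseudocount of 0.1, 11 of the 29 members were at least 4-fold apart in *Comephorus*, where 35.1% of all identifiers were. Of the 12 members with 1 title, 3 were so in *Batrachocottus* in the main setting, against 29.2% of the 318 identifiers with 1 title. The restriction to 1 title was here chosen after seeing the data.

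Directions turned for 5 uncalled members. With each library left out, DN17_c0_g4 ranged from -2.33 (without *B. nikolskii*) to 2.27 (without *B. multiradiatus*), with 0.41 without *C. baicalensis*, and from -2.48 to 3.21 on counts. It was at 0.23 with a pseudocount of 0.1. DN13109_c0_g1 ranged from -3.59 (without *C. dybowski*) to 6.02, DN987_c0_g1 from -3.45 to 0.32 (without *B. nikolskii*; -3.81 to 0.60 on counts) and DN4975_c0_g1 from -4.09 to 1.22 (without *B. multiradiatus*; -4.24 to 1.61). DN2292_c0_g1 ranged from -0.88 (without *B. multiradiatus*) to 3.42 and from -0.65 to 3.95 on counts, with -0.34 without *C. baicalensis*. Sums over identifiers with 1 title moved to -2.52 for elongation factor 1-alpha, 6.85 for 1-beta, -6.62 for 1-gamma, 1.21 for elongation factor 2 and 5.02 for initiation factor 1b. The cause of these changes was not tested beyond the removal of identifiers or libraries that each setting makes.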
